A study of Mus musculus with 2 samples.

Results

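The sarcomere is the contractile unit of striated muscle, and 40 genes that encode its parts were followed here in the open chromatin of the embryonic mouse limb. The genes were chosen by name, as skeletal and cardiac actins, myosins, troponins, tropomyosins, filament proteins and Z-disc or M-band proteins, together with desmin and muscle creatine kinase. All 40 were found among the 21938 protein-coding genes of the GENCODE M21 annotation of the mouse genome (mm10, GRCm38). Open chromatin had been mapped by DNase-seq, in which the enzyme DNase I cuts accessible DNA and clusters of cuts are called as peaks. The samples form 1 group of 2 biological replicates: whole limb at embryonic day 14.5, strain B6NCrl, healthy, with male and female embryos pooled. Both libraries carry the same donor identifier, which leaves it unclear if different embryos were used for each, and there is no second tissue, stage or genotype to compare with. With n = 2, the value of each replicate is printed in place of a mean and SD.

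In the sarcomere, thick filaments of myosin pull on thin filaments of actin, and troponin and tropomyosin make this pull depend on calcium. Titin spans the sarcomere from the Z-disc to the M-band, alpha-actinin anchors the thin filaments at the Z-disc, and desmin links neighbouring myofibrils. Most of these proteins are made in several isoforms from separate genes, so that embryonic, adult fast, slow and heart muscle differ in their set. In the limb these genes are active in muscle fibres that arise from migrating precursors, while most other limb cells, such as mesenchyme and cartilage, do not make sarcomeres. Whole limb was assayed, so a weak peak in many cells and a strong peak in few cannot be told apart.

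The members were placed in 5 classes by where the isoform is best known: 5 embryonic, 10 adult fast, 8 slow, 4 cardiac and 13 common to striated muscle. A peak belonged to a gene's transcription start site (TSS) when it lay at least in part within 500 bp of any annotated TSS of the gene. It was called shared when a peak in the second library overlapped at least 50% of its length. Distal peaks were those centred more than 1 kb away from all protein-coding TSSs, each assigned to the closest TSS if that was no farther than 100 kb. Replicate 1 had 208674 peaks with a median signal of 42 and replicate 2 had 196593 with a median of 31, in a whole-number unit of the authors whose scaling is not given. Signals were therefore compared within a list, by rank. No read counts were used, so the depth is unknown and a missing peak means only that none was called. All 6 limb genes checked, Prrx1, Tbx4, Tbx5, Pitx1, Hoxa13 and Hoxd13, had a shared TSS peak.

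Sequences are shown first for the strongest and then for weaker start sites of these genes. They are given 5′ to 3′ on the gene's strand, cut to the longest stretch outside annotated exons, from the mm10 reference. Capitals mark CAGCTG or the related CAGGTG (E-boxes, bound by MyoD-family factors), the TEAD site GGAATG, the TATA box TATAAA, a CArG box (serum response factor), a MEF2 site or a CTCF core, each searched on both strands. The first set holds, for each class, the shared TSS peak ranked highest over both lists: Myl4 (chr11:104550621-104550662, plus strand), Mylpf (chr7:127208952-127209025, plus), Tpm3 (chr3:90079456-90079539, plus), Tnni3 (chr7:4524316-4524465, minus) and Tpm1 (chr9:67043963-67044085, minus). The peaks of Myl4 and Mylpf also lie within 500 bp of a TSS of another gene, Cdc27 and Tbc1d10b. Those of Tpm3 and Tpm1 are centred 6882 and 5395 bp downstream of the gene's outermost end. That of Tnni3 lies at a transcript without an annotated consensus coding sequence. In this set the capitals occur once, in Mylpf, and the 123 bases of Tpm1 hold 9 CpGs.
Myl4, strongest TSS: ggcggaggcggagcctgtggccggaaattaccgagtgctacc
Mylpf, strongest TSS: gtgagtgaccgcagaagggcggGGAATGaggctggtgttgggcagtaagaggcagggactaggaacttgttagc
Tpm3, strongest TSS: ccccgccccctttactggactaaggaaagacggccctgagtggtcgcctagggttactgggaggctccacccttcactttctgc
Tnni3, strongest TSS: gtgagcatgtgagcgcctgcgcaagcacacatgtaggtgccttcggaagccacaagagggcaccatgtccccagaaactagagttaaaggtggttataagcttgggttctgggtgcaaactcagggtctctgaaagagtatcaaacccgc
Tpm1, strongest TSS: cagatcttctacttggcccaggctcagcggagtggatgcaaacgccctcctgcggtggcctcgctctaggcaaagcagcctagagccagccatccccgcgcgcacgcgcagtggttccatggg

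The second set was chosen after the values were seen, from weaker peaks at muscle start sites that carry muscle motifs: Acta1 (chr8:123894752-123894885, minus), Tnnt2 (chr1:135836076-135836225, plus), Des (chr1:75360156-75360305, plus) and the downstream start of Myl4 (chr11:104576816-104576965, plus). Acta1 holds a CArG box, a TEAD site and TATAAA within 134 bases. Tnnt2 holds 2 copies of CAGCTG, and Myl4 holds the same E-box, then a TATA box and a TEAD site separated by a single base. For contrast, the last line is the 250 bases before the RefSeq start of Myh4 (chr11:67237562-67237811, plus, GRCm38.p6), a promoter where neither library had a peak.
Acta1: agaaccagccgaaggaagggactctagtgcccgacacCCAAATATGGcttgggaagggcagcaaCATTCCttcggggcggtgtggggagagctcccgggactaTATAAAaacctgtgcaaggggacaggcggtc
Tnnt2: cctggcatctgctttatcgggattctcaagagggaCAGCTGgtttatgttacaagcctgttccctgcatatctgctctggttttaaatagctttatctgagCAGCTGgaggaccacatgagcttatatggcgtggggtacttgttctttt
Des: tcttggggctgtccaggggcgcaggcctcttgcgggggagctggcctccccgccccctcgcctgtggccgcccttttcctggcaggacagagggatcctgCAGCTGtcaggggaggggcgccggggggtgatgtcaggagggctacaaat
Myl4, muscle start: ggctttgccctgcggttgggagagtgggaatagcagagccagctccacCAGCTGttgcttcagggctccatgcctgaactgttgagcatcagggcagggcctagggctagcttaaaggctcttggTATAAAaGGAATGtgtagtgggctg
Myh4, no peak: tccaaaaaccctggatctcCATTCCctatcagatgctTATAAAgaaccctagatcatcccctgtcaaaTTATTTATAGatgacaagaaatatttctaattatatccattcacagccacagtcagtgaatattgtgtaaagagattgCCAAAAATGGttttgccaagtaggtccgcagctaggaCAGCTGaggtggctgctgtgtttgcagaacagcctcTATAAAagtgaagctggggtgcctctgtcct

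Fewer sarcomere genes than genes in general had an open start site that recurred in both libraries. A TSS peak was called at 26 of the 40 members in replicate 1, where 69.4% of all protein-coding genes had one, and at 24 in replicate 2, where 68.2% did. In both replicates 22 members had a peak, against 14651 of all 21938 genes. In neither replicate did 12 of the 40 members have one, against 6412 of all 21938 genes, which is a similar share. A peak was shared at 16 of the 40 members (40%), against 65.1% of all genes. Counting only peaks at a TSS of a transcript with a consensus coding sequence (CCDS) and near no other protein-coding TSS left 13 members (32.5%), against 51.9% of all genes. With hotspots, the broader regions that the authors called, in place of peaks, the distance narrowed to 21 of 40 members against 57.2% of all genes. The rule on coding starts was added after the values were seen, and such peaks are called peaks at the gene's own coding start.

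The shared calls were spread unevenly over the classes. Shared TSS peaks were found at 8 of 13 genes common to striated muscle, 3 of 8 slow genes, 2 of 5 embryonic genes, 2 of 10 adult fast genes and 1 of 4 cardiac genes. At the gene's own coding start the counts were 7, 3, 2, 1 and 0 in the same order. The classes are small, and no test was made between them. With any overlap of the replicates' peaks, down to 1 bp, the embryonic count became 4 of 5 while the fast and cardiac counts stayed at 2 and 1. With a window of 1000 bp the fast count became 5 of 10, adding Myh1, Tnni2 and Mybpc2, while the embryonic count stayed at 2. With Myl4, Actc1 and Tnnt2 counted as cardiac it was 0 of 2 embryonic and 3 of 7 cardiac genes, so the order of the classes rests on these choices.

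**Figure D1:**
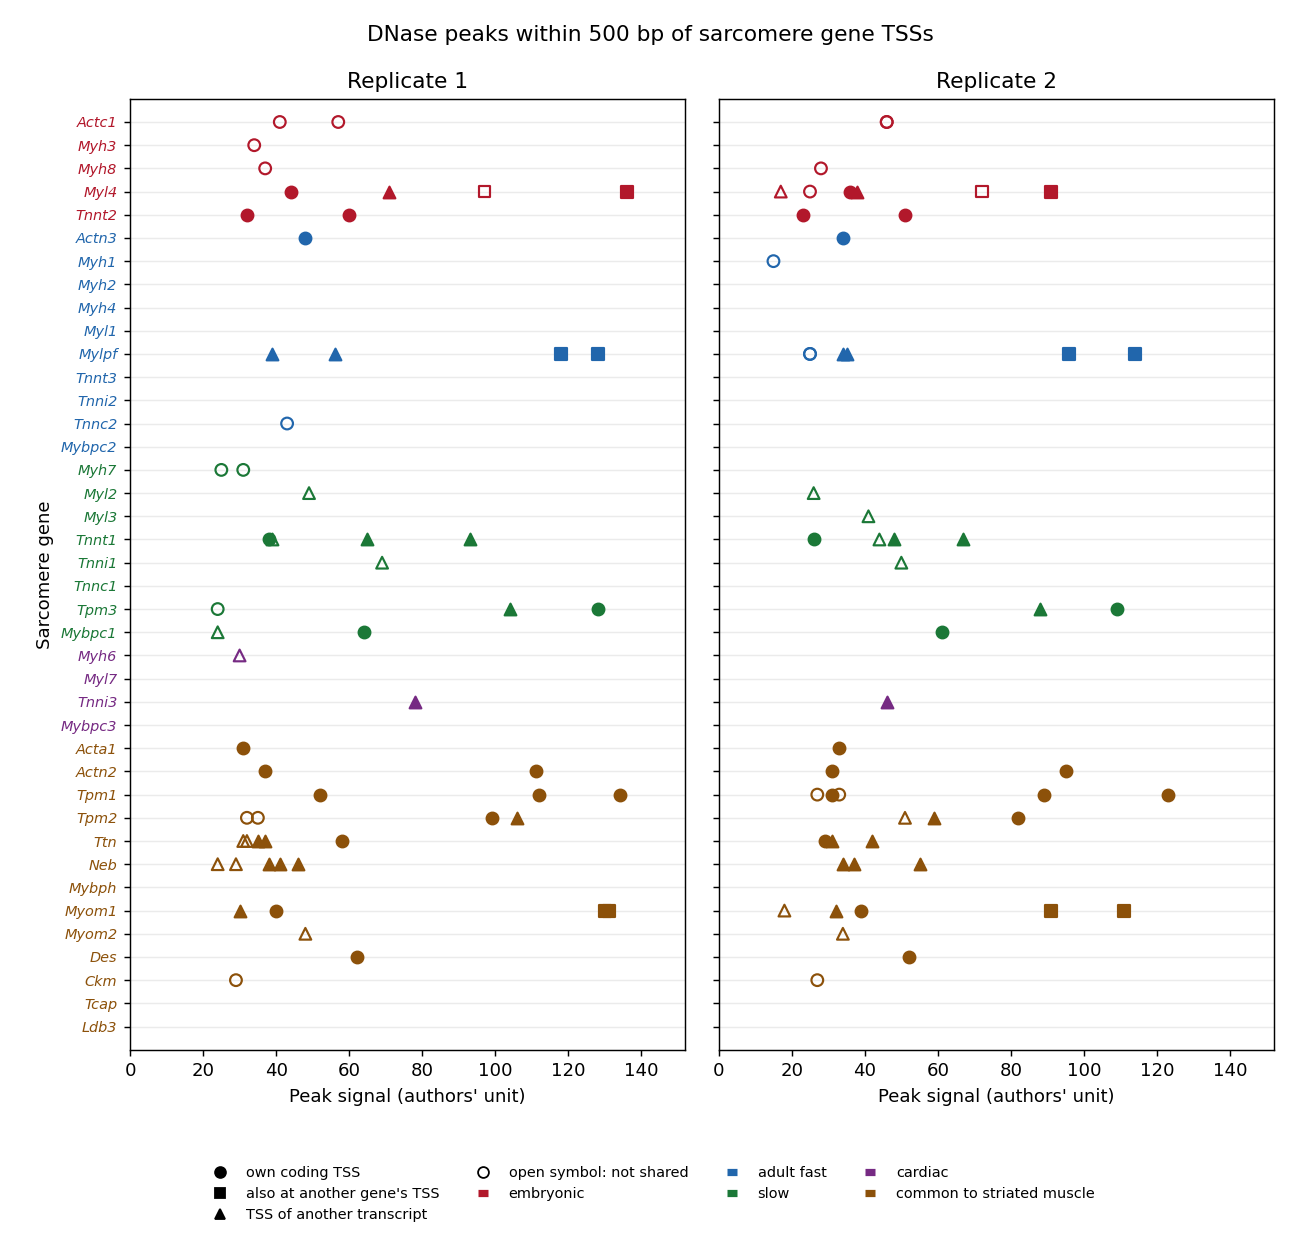
Each symbol is a DNase peak within 500 bp of a TSS of the gene on the vertical axis. The horizontal axis gives its signal in the authors' unit, on separate panels for the replicates. Colours give the class, filled symbols are shared peaks and open symbols are not, and shapes give the kind of TSS. The filled squares, which also lie at another gene's TSS, sit between 91 and 136, and 12 genes have no symbol in either panel.

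Among the embryonic genes, Myl4, the atrial and fetal essential light chain of myosin, had 3 shared TSS peaks. Its strongest, at 136 in replicate 1 and 91 in replicate 2, also lies in the window of Cdc27, a cell cycle gene. The peak at the coding start used in muscle, centred 26228 bp downstream of the gene's outermost end, had 44 and 36. A further peak, 71 and 38, lay at the start of another transcript.

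Tnnt2, the troponin T of heart and of early skeletal muscle, had 60 and 51 just upstream of its start and 32 and 23 at a second start in the gene. Actc1, the alpha-actin of heart and embryonic skeletal muscle, had peaks of 57 and 41 in replicate 1 and of 46 and 46 in replicate 2. They overlapped by less than 50%, so Actc1 counts as not shared although both libraries had 2 peaks there.

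The embryonic and neonatal myosin heavy chains, Myh3 and Myh8, had weak peaks. Myh3 had 34 in replicate 1 and no TSS peak in replicate 2. Myh8 had 37 in replicate 1 and 28 in replicate 2, which met only the 1 bp rule. All 5 embryonic genes thus had a TSS peak in replicate 1 and 4 of them in replicate 2.

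At 6 of the 10 adult fast genes no TSS peak was called in either replicate. These were Myh2 and Myh4, which encode the IIa and IIb heavy chains, Myl1, the fast essential light chain, Tnnt3 and Tnni2, the fast troponins T and I, and Mybpc2, the fast myosin-binding protein C. Myh1, the IIx heavy chain, had a single peak of 15 in replicate 2, which ranked at the 1.11 percentile of TSS peaks in that list. Tnnc2, the fast troponin C, had a single peak of 43 in replicate 1.

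Actn3, the fast-fibre alpha-actinin, was the only fast gene with a shared peak at its own coding start, at 48 and 34. Mylpf, the fast regulatory light chain, had 128 and 96 in its most upstream peak and 118 and 114 in the next, but both also lie in the window of Tbc1d10b. At its coding start, Mylpf had overlapping peaks of 25 and 25 in replicate 2, centred 2641 and 2681 bp downstream of the gene's outermost end, and none in replicate 1. A pair of further shared peaks of Mylpf, 39 and 34 and then 56 and 35, lay at starts of other transcripts.

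Slow genes ranged from among the strongest starts to none. Tpm3, a tropomyosin made in slow fibres and, from another start, in most cells, had 128 and 109, and a second peak of 104 and 88. They were centred 6882 and 7662 bp downstream of its outermost end, and Tpm3 had no shared peak when only that end was counted, which left 2 slow genes. Tnnt1, the slow troponin T, had 93 and 67 and also 65 and 48 at starts of other transcripts, and 38 and 26 at its coding start. Mybpc1, the slow myosin-binding protein C, had 64 and 61. These 3 slow genes had a shared peak at their own coding start.

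The remaining slow genes had weaker or unmatched peaks. Tnni1, the slow troponin I, had 69 in replicate 1 and 50 in replicate 2 upstream of its 5′ end, overlapping by less than 50%. Myl2, the slow and ventricular regulatory light chain, had 49 in replicate 1 and 26 in replicate 2, centred 3480 and 1880 bp downstream of its outermost end. Myh7, the slow and beta-cardiac heavy chain, had overlapping peaks of 25 and 31 in replicate 1 only. Myl3, the slow and ventricular essential light chain, had 41 in replicate 2 only. Tnnc1, the troponin C of slow and heart muscle, had none in either.

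Among the cardiac genes, 1 of 4 had a shared TSS peak and none had one at its own coding start. Myl7, the atrial regulatory light chain, and Mybpc3, the cardiac myosin-binding protein C, had no TSS peak. Myh6, the alpha-cardiac heavy chain, had a single peak of 30 in replicate 1. Tnni3, the cardiac troponin I, had a shared peak of 78 and 46, the 55.6 and 47.5 percentiles of TSS peaks, at a transcript without a CCDS.

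Genes common to striated muscle ranged from strong starts to none. Tpm1, a tropomyosin with separate promoters for muscle and other cells, had 134 and 123, 112 and 89, and 52 and 31, all at its own coding starts. Its strongest peak was centred 5395 bp downstream of the gene's outermost end, at a CpG ratio of 0.772, and stood at the 95.0 percentile of TSS peaks in replicate 1 and the 98.7 percentile in replicate 2. Actn2, the sarcomeric alpha-actinin, had 111 and 95 at its start and 37 and 31 within the gene. Tpm2 had 99 and 82 at its coding start and 106 and 59 at another.

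Des, the muscle intermediate filament, had 62 and 52. Titin (Ttn) had 58 and 29 at its coding start, then 37 and 31, and 35 and 42, at other starts. Acta1, the skeletal alpha-actin, had 31 and 33, the 9.16 and 29.4 percentiles of TSS peaks in the 2 lists.

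Nebulin (Neb), which runs along the thin filament, had 3 shared peaks, 46 and 55, 41 and 34, and 38 and 37, all at starts of other transcripts. Myomesin 1 (Myom1), an M-band protein, had 131 and 91 and then 130 and 111 in windows shared with Myl12a and Myl12b, non-sarcomeric light chains, and 40 and 39 at its own coding start. A further shared peak, 30 and 32, lay at a start within the gene.

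Another pair of genes in this class had a peak in each library that did not match. Myom2 had 48 and 34, and Ckm, the muscle creatine kinase, 29 and 27. A stronger shared peak near an outer start of Ckm, 74 and 55, lay 511 bp away, just outside the window and beside the start of Klc3. The farthest shared peak inside a window was that of Ttn at 490 bp, with 35 and 42. The start sites of Mybph, Tcap and Ldb3 had no peak. None of the 12 members without a TSS peak had a hotspot there either. Of all 21938 protein-coding genes, 6412 had no TSS peak and 6357 no TSS hotspot in either replicate.

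By kind, the shared TSS peaks at own coding starts overlapped in signal with both other kinds. Those at other transcripts all stayed below those in another gene's window. The 5 that also lay in another gene's window had signals of 118 to 136 in replicate 1 and 91 to 114 in replicate 2. The 17 at own coding starts ran from 31 to 134 and from 23 to 123, with medians of 58 and 39. The 14 at other transcripts ran from 30 to 106 and from 31 to 88, with medians of 51 and 40. Over all 23480 shared TSS peaks of protein-coding genes the medians were 91 and 64, and over the 36 of the members 61 and 47.

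The CpG content of the start sites ran in parallel with these calls. CpG content was taken as observed over expected CpGs within 500 bp on each side of a TSS, at the gene's highest window, and its median was 0.315 for the members and 0.627 for all genes. All 7 members at 0.6 or more, Des, Myl4, Mylpf, Myom1, Tnnt1, Tpm1 and Tpm3, had a shared TSS peak, as did 94.6% of all such genes. From 0.3 to under 0.6 it was 8 of 16 members (50%) and 61.4% of all genes. Under 0.3 it was 1 of 17 members (5.88%), Acta1, and 10.3% of all genes. What part CpG content has in the lower count of the members was not tested. The highest window need not be the one with the peak: the coding start of Tnnt1 has a ratio of 0.128.

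**Figure D2:**
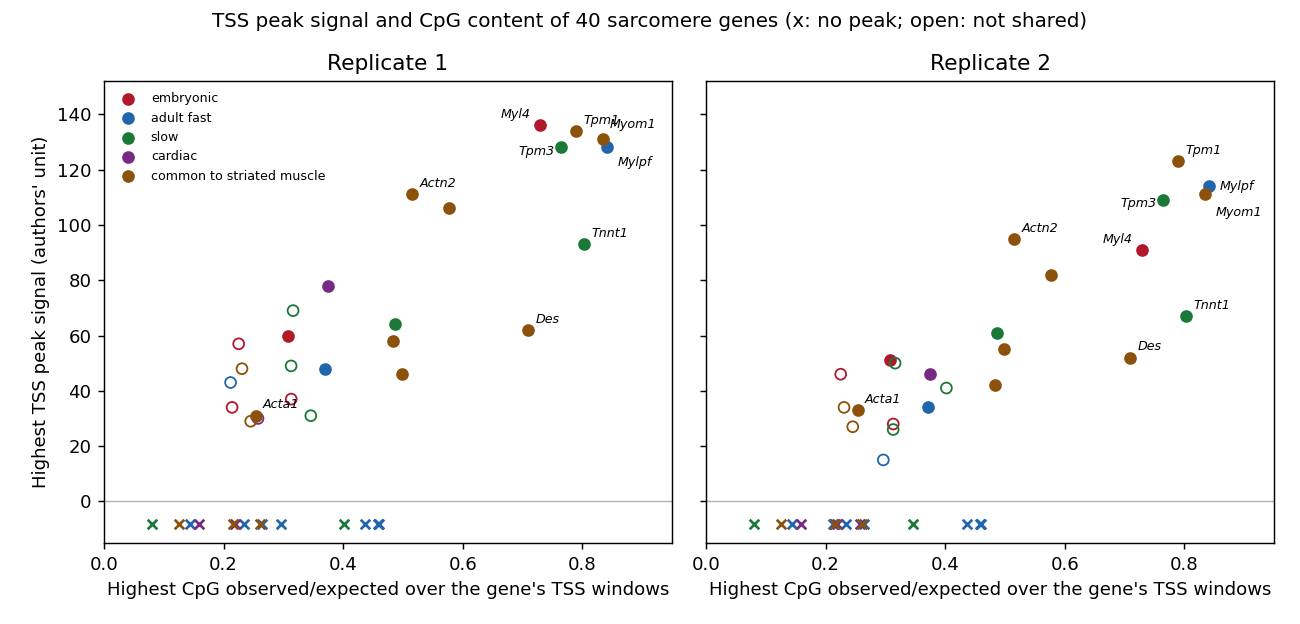
The horizontal axis is the highest CpG observed/expected ratio over the TSS windows of each of the 40 genes, and the vertical axis is its highest TSS peak signal in the authors' unit, by replicate. Filled circles have a shared peak, open circles a peak that is not shared, and crosses below 0 no peak. The 7 genes at a ratio of 0.6 or more are all filled circles, and Acta1 is the only filled circle under 0.3.

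Muscle genes outside the sarcomere list were counted in the same way. Of 40 other muscle genes, for calcium handling, the Z-disc, the M-band, the thin filament, further myosins, oxygen storage and protein turnover, 23 (57.5%, against 65.1% of all genes) had a shared TSS peak and 20 had one at their own coding start, with a median CpG ratio of 0.341. Atp2a2, the calcium pump of slow muscle, heart and most other cells, had the highest, 133 and 107. Atp2a1, the fast calcium pump, had none. This list and the members were not tested against each other.

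Distal open chromatin was present near most sarcomere genes. At least 1 shared distal peak was nearest to 34 of the 40 members (85%), against 64.9% of all genes. The members had 155 such peaks, from 236 distal peaks in replicate 1 and 219 in replicate 2, a mean of 3.88 and a median of 3 per gene, against 3.46 and 1 over all genes. Related to the sequence that lies nearest to each gene under the same rule, its territory, this was 8.12 per 100 kb for the members and 4.79 for all genes. The 25 peaks of Tpm1 weighed on this value, which was 7.30 without it.

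Territories of the members are small, with a median of 25.8 kb against 40.7 kb for all genes, so the density was also taken within bands of size. It was 12.3 per 100 kb for the 15 members with 20 to under 50 kb, against 5.16 for all genes of that size. For 5 to under 20 kb it was 7.90 against 5.64 and for 50 kb and over 6.70 against 4.69. In the 4 smallest it rested on 2 peaks. The farthest peak inside the 100 kb limit, at 90.3 kb from Tpm1, had 12 in replicate 2, and the nearest outside that was present in both libraries, at 102.6 kb from Myom2, had 35 and 20. In each replicate 17 peaks of members lay between the TSS window and 1 kb and entered neither count.

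The number of shared distal peaks differed widely between genes. Tpm1 had 25 and Myom1 16, followed by Neb with 10, Ttn and Myl3 with 8 and Myh3 with 7. Tnni1, Mybpc1 and Actn2 had 6 each. None was found at Myl7, Tnnt1, Tnnc1, Tnnc2, Ckm and Tcap, whose territories run from 2.15 to 11.9 kb. By class the means were 6.85 for common genes, 3.62 for slow, 3.2 for embryonic, 1.7 for adult fast and 1 for cardiac genes. Per 100 kb of territory they were 7.97, 10.98, 7.92, 6.24 and 7.22, so the order changes with the scale.

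Distal peaks were also found at genes where no TSS peak was called. Of those 12 members 9 (75%) had a shared distal peak, against 25 of the other 28 (89.3%). Over all genes, with or without a TSS peak, 64.9% had one, and the same split is not given for them. Among the 12, Tnnt3 had 5 shared distal peaks, Mybph 4, Myl1 and Ldb3 3 each, and Myh2, Mybpc2 and Mybpc3 2 each. Myh4 and Tnni2 had 1 each, that of Tnni2 just beyond the 1 kb limit, and Myl7, Tnnc1 and Tcap none.

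**Figure D3:**
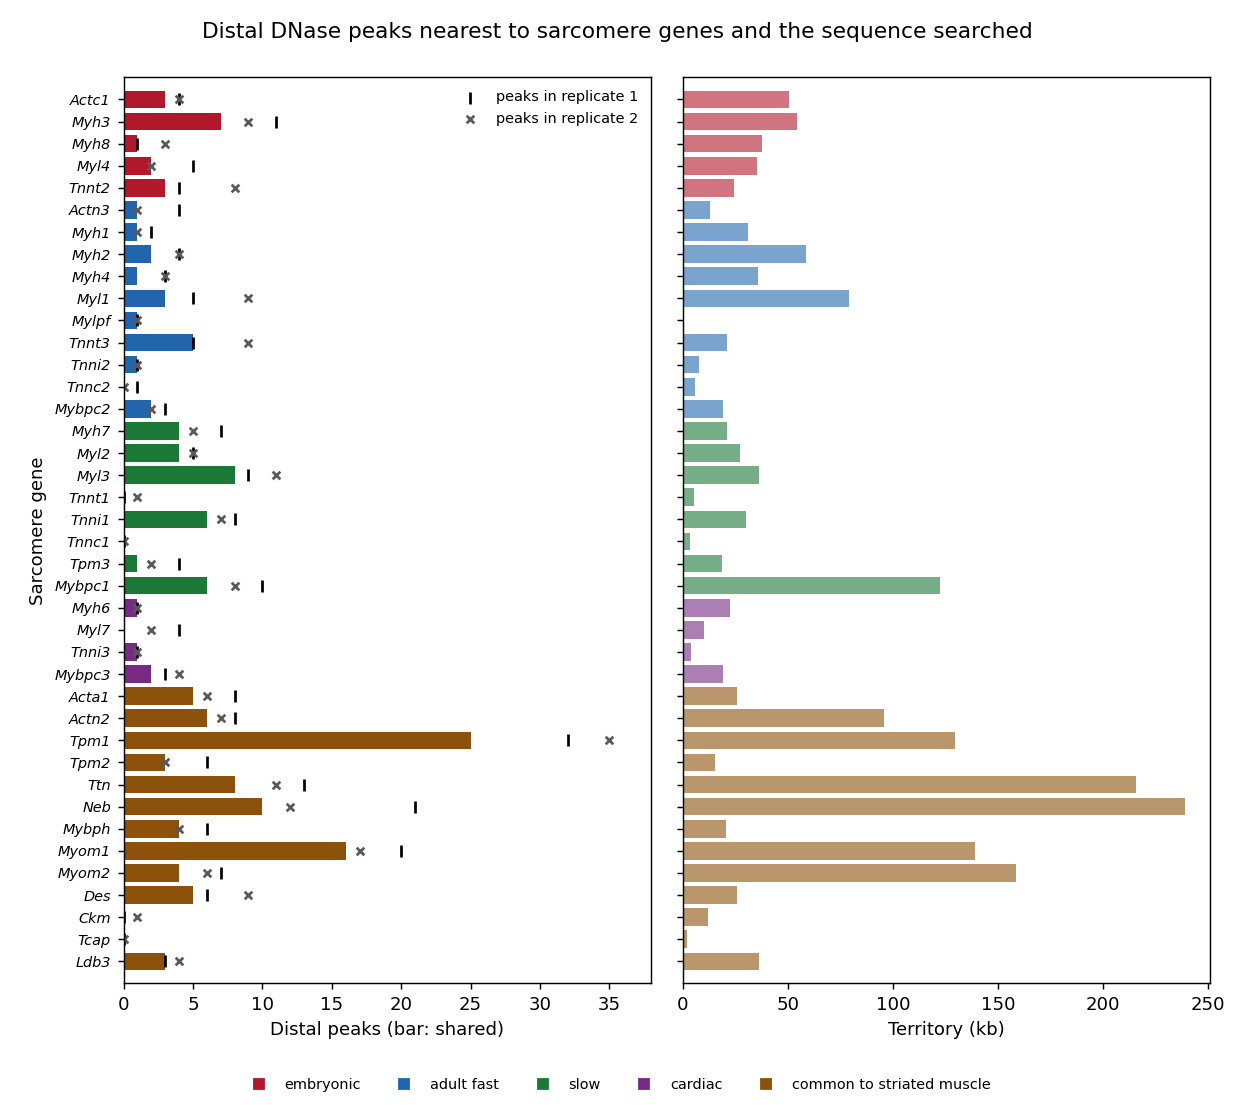
Bars on the left give the number of shared distal peaks nearest to each gene, with ticks for replicate 1 and crosses for replicate 2 counted alone. Bars on the right give the territory in kb, and colours the class. Tpm1, with 25, stands above Neb, with 10, although its territory of 130 kb is smaller than the 239 kb of Neb.

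Most distal peaks lay within 10 kb of a start of the member, and many lay in its introns. These shares are not given for all shared distal peaks, and the rule of the nearest TSS limits the distances. Their median distance from the nearest TSS of the member was 7.52 kb, 89 of 155 were within 10 kb, and 77 lay upstream and 78 downstream. Introns held 93 (60%), 77 of them introns of the member itself, exons 12 (7.74%) and intergenic sequence 50 (32.3%). Inside another gene lay 25. Their signals had medians of 56 in replicate 1 and 40 in replicate 2, against 50 and 36 for all 75905 shared distal peaks.

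The strongest distal peaks of each class are named by rank over both lists. In the adult fast class a peak at −1.02 kb from Tnni2, where negative distances are upstream, had 101 and 89, and a peak 2.30 kb downstream of the nearest start of Tnnt3 had 97 and 77. Both genes had no TSS peak within 500 bp, yet the first of these peaks stood at the 98.1 and 99.2 percentiles of distal peaks. It lies just beyond the 1 kb limit, and with a TSS window of 1000 bp it counted as a shared TSS peak of Tnni2. In the embryonic class, peaks in introns of Myl4 and Actc1 had 86 and 70, and 80 and 60, and a peak 32.1 kb downstream of the Myh3 start had 83 and 56.

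The strongest peaks given to 2 cardiac genes lay in exons of their neighbours. That of Tnni3, 130 and 105, is in Dnaaf3, a gene of ciliary dynein assembly, and that of Mybpc3, 116 and 74, in Spi1, a regulator of blood cells. The peak of Myh6, 49 and 26, lies within Myh6 itself. Among slow genes, Myl3 had 123 and 87 at 13.1 kb downstream of its nearest start and 110 and 93 in an intron of Pth1r, the parathyroid hormone receptor of cartilage and bone. Myl2 had 106 and 73 in intergenic sequence at −11.9 kb.

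In the common class the top peaks were all at Tpm1. They had 106 and 83 at 20.2 kb downstream, 99 and 91 at −66.8 kb and 107 and 78 in an intron at −1.17 kb from a start. Des had 102 and 73 at −17.3 kb, and Acta1 had 96 and 62 at 3.26 kb downstream, where its TSS peak had only 31 and 33. The nearest TSS is a rule of position and does not show which gene a peak acts on.

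**Figure D4:**
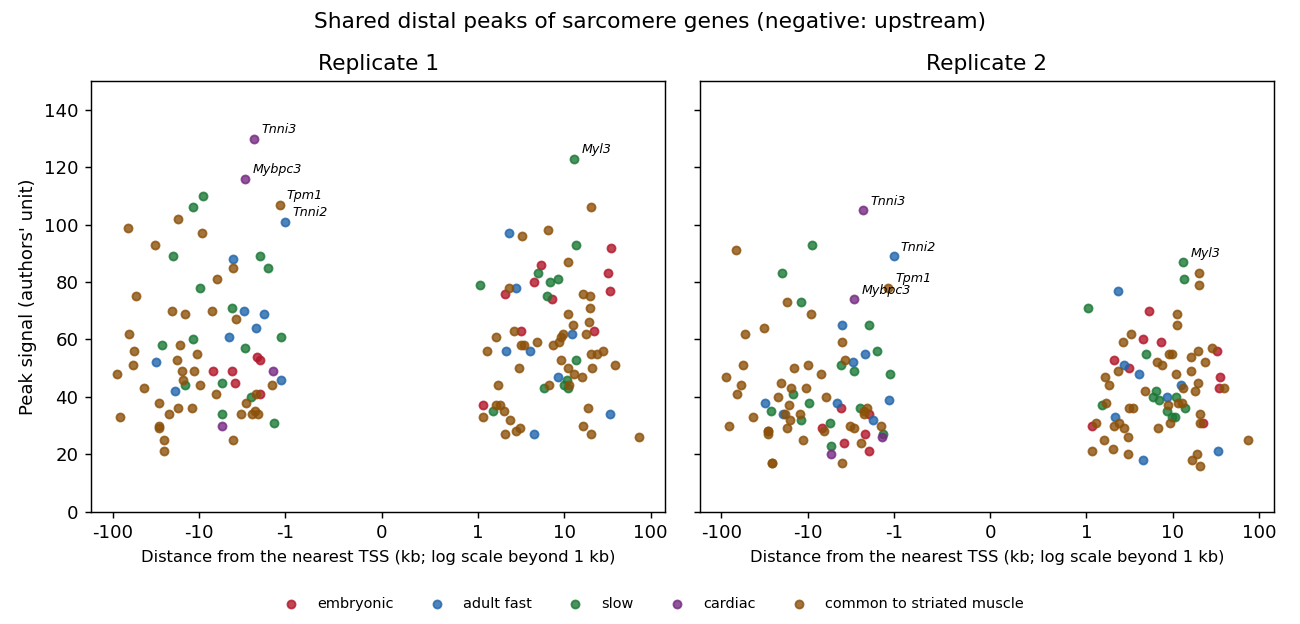
Each point is a shared distal peak of a sarcomere gene. The horizontal axis is its distance from the gene's nearest TSS in kb, negative upstream and logarithmic beyond 1 kb, and the vertical axis its signal in the authors' unit, by replicate. The highest point in both panels is that of Tnni3, at 130 and 105.

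Sequences of the strongest distal peak in 4 of the classes show different make-ups: Tnni2 (chr7:142440716-142440865, plus), Myl3 (chr9:110781436-110781585, plus), Tpm1 (chr9:67012536-67012685, minus) and Myl4 (chr11:104590236-104590385, plus). The peak of Myl3 holds 19 CpGs in 150 bases, against 1 each for Tnni2 and Tpm1. That of Myl4 holds a CTCF core, the sequence bound by an organiser of chromatin loops. The cardiac one, in an exon of Dnaaf3, is not shown.
Tnni2, distal: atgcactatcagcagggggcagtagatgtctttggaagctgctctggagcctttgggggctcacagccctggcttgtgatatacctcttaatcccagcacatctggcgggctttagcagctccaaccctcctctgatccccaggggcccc
Myl3, distal: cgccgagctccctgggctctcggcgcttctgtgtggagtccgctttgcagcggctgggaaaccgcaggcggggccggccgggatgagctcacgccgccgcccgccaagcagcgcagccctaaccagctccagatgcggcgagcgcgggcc
Tpm1, distal: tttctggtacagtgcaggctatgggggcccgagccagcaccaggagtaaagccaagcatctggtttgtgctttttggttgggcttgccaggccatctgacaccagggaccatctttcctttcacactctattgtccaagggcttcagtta
Myl4, distal: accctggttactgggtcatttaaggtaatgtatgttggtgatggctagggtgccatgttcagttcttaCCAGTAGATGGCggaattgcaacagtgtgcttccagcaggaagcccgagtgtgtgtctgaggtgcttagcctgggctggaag

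Motifs of muscle factors were counted in the peaks and in the promoters. The letters searched on both strands were the general E-box CANNTG, the sequences printed in capitals above and the site AGATAA of GATA factors, besides the MEF2 site, the CArG box and the CTCF core, the last added after the data were seen. CAGCTG and CAGGTG are forms of CANNTG. Motifs may overlap, and a match is a description of letters, not of binding. In the 155 distal peaks, CAGCTG was in 40 (25.8%, against 20.1% of all shared distal peaks) and GGAATG in 25 (16.1% against 13.3%). CAGGTG was in 23 (14.8% against 11.3%) and AGATAA in 11 (7.10% against 4.60%). The MEF2 site was in 3 (1.94% against 1.36%), at Tpm2, Neb and Myom1, and the CArG box in 2 (1.29% against 0.943%), at Mylpf and Tpm1. CANNTG, at 65.8% against 66.3%, was in most peaks of either set. A CTCF core was in 12 (7.74% against 6.52%), 3 of them at Myh3 and 2 at Tnni1.

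In the shared TSS peaks every motif reported here except the MEF2 site was above the background. CAGCTG was in 11 of the 36 shared TSS peaks (30.6% against 10.9% of all) and GGAATG in 7 (19.4% against 7.04%), while the MEF2 site was in 0 (0.528% of all). CANNTG was in 25 (69.4% against 41.8%), CAGGTG in 6 (16.7% against 8.85%) and TATAAA in 3 (8.33% against 2.68%). The CTCF core was in 2 (5.56% against 1.33%). The CArG box (0.660% of all) and AGATAA (1.92% of all) were in 1 each (2.78%). In the RefSeq promoters, 250 bases before to 50 after a start, 34 of 40 members were matched, with 40 promoters. Actn3, Tnnt3, Tnni2, Neb, Myom2 and Tcap were not matched. CAGCTG was in 16 of the 40 (40%, against 16.3% of all 32851 promoters), GGAATG in 14 (35% against 14.7%), TATAAA in 12 (30% against 13.6%), the CArG box in 8 (20% against 1.63%) and the MEF2 site in 5 (12.5% against 1.86%). AGATAA was in 4 (10% against 11.2%) and the CTCF core in 0 (0.557% of all).

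These promoter motifs were present with and without a shared TSS peak. TATAAA was in 2 of the 16 promoters of members with a shared TSS peak, those of Acta1 and Tnnt1, and in 10 of the 24 of members without. The CArG box was in 2 and 6, the MEF2 site in 1 and 4, and GGAATG in 4 and 10. The promoter of Myh4, printed above, holds an E-box, a TEAD site, a TATA box, a CArG box and a MEF2 site and had no peak. CAGCTG was in 7 of 16 and 9 of 24. The split is by gene, not by promoter, and the members without a shared peak include Actc1, Myh8, Tnni1, Myl2 and Ckm, which had a TSS peak in each library. The part of base composition in these counts was not tested.

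Several sarcomere genes lie side by side, and their loci differed. The skeletal myosin heavy chain cluster, from Myh3 to Myh13 on chromosome 11 (67078300 to 67371586, mm10), spans 293 kb and had 30 peaks in each replicate, of which 19 were shared. That is 6.48 per 100 kb, against 4.68 over the genome. Of the distal shared peaks, 7 were nearest to Myh3, with up to 92, and 8, some beyond the end of the cluster, to Myh13, a heavy chain of eye muscles. The adult genes Myh2, Myh1 and Myh4 in the middle had 2, 1 and 1, and Myh8 had 1. Within 500 bp of a start, Myh13 had a shared TSS peak of 44 and 31 at its own coding start. No sarcomere gene of the list in this cluster had a shared TSS peak.

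The cardiac cluster of Myh6 and Myh7 on chromosome 14 (54941921 to 54994626) spans 52.7 kb and had 3 peaks in replicate 1, 1 in replicate 2 and 1 shared, at 1.90 per 100 kb. The 4 shared distal peaks of Myh7 lay beyond it, upstream of that gene, with up to 57 and 49. The troponin pairs held more. Tnni2 to Tnnt3 (chromosome 7, 142441808 to 142516009), an interval that also holds Lsp1, a gene of white blood cells, had 15 shared peaks. Tnni1 and Tnnt2 (chromosome 1, 135779434 to 135852260) had 15, and Tnnt1 and Tnni3 (chromosome 7, 4504570 to 4524229) had 4. Their densities were 20.2, 20.6 and 20.3 per 100 kb. Counts over an interval include peaks at other genes in it and between genes. Of the 15 shared peaks from Tnni2 to Tnnt3, 3 lay within Tnnt3 and 0 within Tnni2.

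**Figure D5:**
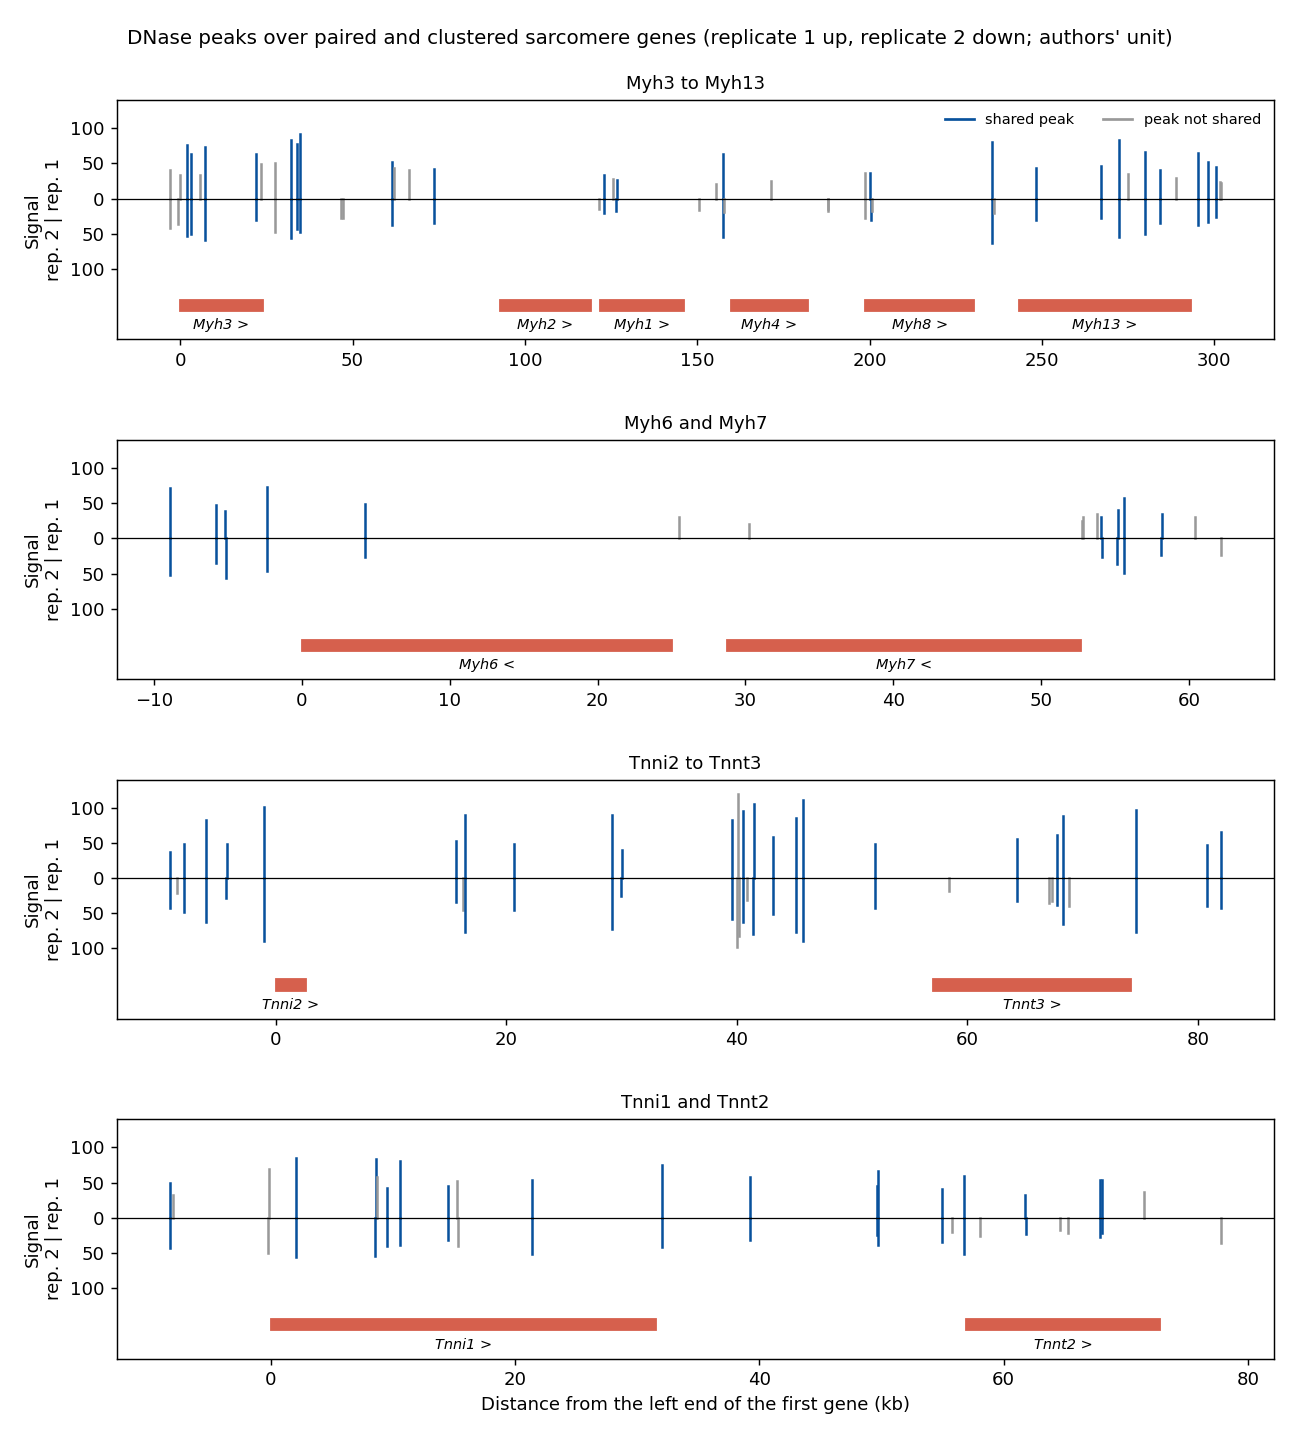
Vertical lines are DNase peaks over 4 loci of neighbouring sarcomere genes, with the signal of replicate 1 upward and that of replicate 2 downward in the authors' unit. Blue peaks are shared and grey ones are not. The horizontal axis is the distance from the left end of the first gene in kb, red boxes are genes and arrowheads give their strand. The Myh6 and Myh7 bodies hold 1 shared peak, and the 293 kb from Myh3 to Myh13 hold 19.

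The regulators of muscle identity gave a reference for how open muscle genes are in these libraries. Of 9 skeletal myogenic regulators, 7 had a shared TSS peak, among them Myod1, which commits cells to muscle, with 57 and 59, Myf5 with 39 and 33, and Myog, which drives differentiation, with 69 and 56. Myf6, active in later fibres, had no TSS peak, and the peaks of Pax7, a marker of muscle progenitors, at 50 and 39, were not shared. The peak of Acta1, at 31 and 33, was thus no higher than that of Myf5 in either list. Of 8 heart regulators and markers, 3 had a shared TSS peak (Nppb, Myocd and Ankrd1), while Nkx2-5 had a peak of 26 in replicate 1 only. The shares were 77.8% of the myogenic and 37.5% of the heart list, against 65.1% of all genes.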

How the data were processed

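The members, classes and gene lists were chosen with earlier results of these data known. For each library the authors deposited peaks with a signal, a whole number whose scaling is not given in the sources used here, and hotspots with a −log10 q-value, of which only the positions were used. Peaks were called per library on mm10, per the labels, and for the aligner and caller the sources used here give no name. Of the deposited peaks, 291 in replicate 1 and 277 in replicate 2, on the mitochondrial genome or unplaced sequence, were set aside. For shared peaks, the position in replicate 1 was used. Genes, exons and CCDS tags came from GENCODE M21, sequence from GRCm38.p6 and promoters from RefSeq (GRCm38.p6). Python 3.11.15, numpy 2.4.6 and pandas 2.3.3 were used, and the assignments and territories were checked on simulated regions. Every member was named, and 1 motif is not reported here. With 1 group and no contrast, no test was run: members are described beside all genes. The alternatives concerned replicates, overlap, signal, hotspots, windows, distances and classes.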

Additional observations from a re-analysis of the deposited data

How the results depend on the processing

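No paired analysis was possible because the 2 libraries form 1 group and no result comes from a test. In either library alone, the other left out, 24 to 26 members had a TSS peak, with 4 to 5 embryonic, 3 fast, 6 slow, 1 to 2 cardiac and 10 common genes, and 219 to 236 distal peaks at 36 to 37 members. Among the 50000 peaks of highest signal, 10 members had a shared TSS peak (55.3% of all genes), with 1 embryonic, 1 fast and 4 common genes, and 46 distal peaks; Acta1, Actn3, Tnnt2, Ttn, Neb and Des were lost. An overlap of 1 bp and hotspots in place of peaks each gave 21 members and 4 embryonic genes, adding Actc1, Myh8, Tnni1, Myom2 and Ckm. A window of 1000 bp gave 5 fast genes. With Myl4, Actc1 and Tnnt2 counted as cardiac, the counts were 0 of 2 embryonic and 3 of 7 cardiac genes. With own coding starts only they were 1 fast and 0 cardiac. The cause of these changes was not tested beyond what each rule removes or adds. Among all genes the share with a shared TSS peak was 66.4% at an overlap of 1 bp, 57.2% with hotspots and 67.3% with the window of 1000 bp, where 22 members had one.
The depth of the libraries is unknown, so a closed start site and one open in too few cells to be called cannot be told apart. With n = 2 and a shared donor identifier, agreement of the libraries may be technical. Isoform classes overlap in life, and several start sites here lie beside other genes or at transcripts without a CCDS.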

Other observations

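Smooth muscle genes, which encode the contractile proteins of vessel walls, had shared TSS peaks at 6 of 7 genes, against 16 of 40 sarcomere genes. All 6 were at the gene's own coding start. Over all protein-coding genes the share was 65.1%, and 51.9% at the own coding start. The median CpG ratios were 0.331 for the smooth muscle and 0.315 for the sarcomere genes. Acta2, the smooth muscle alpha-actin, had 69 and 58, Myh11, the smooth muscle heavy chain, 68 and 53, Tagln 56 and 47, and Lmod1 93 and 68. Actg2, the enteric actin, had no TSS peak. The difference between the lists was not tested.

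Of the 89 shared peaks within the body of a sarcomere gene and farther than 1 kb from protein-coding starts, 7 were nearest to the start of another gene and so were not counted for the member. These include 4 inside Ldb3, with up to 120 and 93, and 1 inside Ckm, with 104 and 87, which the rule gave to Mark4. Ckm and Ldb3, at whose starts no peak was shared, thus held stronger peaks within their bodies than the distal counts show.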
